A study of Mus musculus with 12 samples.

Results

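Superoxide dismutases, catalase and glutathione peroxidases are the enzymes that remove superoxide and hydroperoxides from the cell. Of this group 9 genes were described here out of the 34866 genes of the deposited expression table: Sod1, Sod2, Sod3, Cat, Gpx1, Gpx3, Gpx4, Gpx7 and Gpx8. They were named by symbol, with earlier results of these data known. Each symbol matched 1 Ensembl identifier on the GRCm38 mouse genome. Gpx2 did not exceed 0.141 TPM (a level corrected for transcript length and scaled to the same total in every library) in any library, and Gpx5 and Gpx6 were listed at 0 in every library.

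The libraries were made from mouse embryonic fibroblasts (MEFs) to compare male and female cells with and without sirtuin 3, a deacetylase of the mitochondrial matrix. MEFs were isolated from individual embryos, 13 days old, of 129S1/SvImJ WT (Sirt3+/+) and Sirt3-/- female mice. The paper lists a separate mouse stock for each genotype. The cells were sexed by PCR and made into stable lines with a plasmid carrying the SV40 T antigen. WT and KO cells alike were thus immortalized. RNA was taken at passage 6, 48 h after seeding, from 3 seedings of WT and 3 of KO cells of each sex, 12 libraries in all. The number of embryos or lines behind each group is not given in the sources used here. Genotype, mouse stock, sex and cell line can therefore not be told apart, and p-values measure the spread between seedings, which may be technical only.

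Sirt3 mRNA was not lower in the libraries labelled KO. It was at 6.59, 7.17 and 9.07 TPM in male WT and at 8.88, 10.9 and 11.0 TPM in the male libraries labelled KO (log2 fold change 0.39, limma adjusted p = 0.0981). In female cells it was at 7.40, 7.60 and 8.69 TPM in WT and at 7.57, 9.06 and 8.19 TPM in the libraries labelled KO (0.059, limma adjusted p = 0.772). The part of the gene that the knock-out removes is not given in the sources used here, so gene-level TPM neither bears out nor contradicts the genotype. The paper also shows an immunoblot of Sirt3 protein from MEFs, which was not examined here. WT and KO below are the labels of the libraries. The 8 fibroblast markers summed to 6519 to 10715 TPM in every library, mostly Col1a1, Vim and Col1a2. Pdgfra was at 6.98 to 32.6 TPM and Dcn at 5.60 to 17.3 TPM. Between 12256 and 12637 genes reached 1 TPM in a library, and the read depth behind the TPM values is unknown.

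Superoxide dismutases turn superoxide into hydrogen peroxide, Sod1 with copper and zinc mainly in the cytosol, Sod2 with manganese in the mitochondrial matrix and Sod3 on the cell surface and in the matrix outside the cell. Catalase, in peroxisomes, splits hydrogen peroxide into water and oxygen, while classical glutathione peroxidases reduce hydroperoxides with electrons from glutathione. Sod2 protein is a known substrate of sirtuin 3, whose effect on it is on acetylation and activity, which mRNA levels do not measure.

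The glutathione peroxidases fall into 2 chemical classes, which the results below separate. Gpx1, Gpx3 and Gpx4 carry selenocysteine in the active site, encoded by a TGA codon that is read through, and Gpx7 and Gpx8 carry cysteine there. The 33 bases around that codon are given from the GRCm38 transcripts of GENCODE M21, 5′ to 3′ on the coding strand, with the active-site codon in capitals, to show the base change that sets the classes apart.
Gpx1: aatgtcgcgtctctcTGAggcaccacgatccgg
Gpx3: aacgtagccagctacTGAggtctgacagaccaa
Gpx4: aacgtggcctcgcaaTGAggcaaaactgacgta
Gpx7: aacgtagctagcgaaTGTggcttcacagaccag
Gpx8: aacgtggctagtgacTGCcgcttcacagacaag

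The TGA codon of Gpx1 lies in exon 1 at chr9:108339451-108339453 (plus strand, codon 47 of 201), that of Gpx3 in exon 2 at chr11:54907256-54907258 (plus strand, codon 73 of 226) and that of Gpx4 in exon 3 at chr10:80054737-80054739 (plus strand, codon 129 of 253). All 3 are annotated as selenocysteine. The cysteine codon of Gpx7 lies in exon 2 at chr4:108403430-108403432 (minus strand, codon 56 of 186) and that of Gpx8 in exon 2 at chr13:113045661-113045663 (minus strand, codon 79 of 209). Gpx7 and Gpx8 are proteins of the endoplasmic reticulum (ER) with little activity towards glutathione, and are known to use peroxide to oxidize protein disulfide isomerases.

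Sod1, Gpx1 and Gpx4 dominated these mRNAs in every library. Sod1 made up 95.2% to 96.3% of the summed TPM of the superoxide dismutases, and Gpx1 and Gpx4 together made up 81.8% to 87.7% of that of the 5 glutathione peroxidases. Among all genes of the table, ordered by mean TPM, Gpx1 ranked 238, Sod1 282, Gpx4 295 and Gpx8 882. Cat ranked 5613, Sod2 6256 and Gpx7 6892, at 9.75 to 34.9 TPM. Gpx3 (rank 11351) did not exceed 3.76 TPM or Sod3 (rank 13040) 2.69 TPM in any library, and Sod3, with a mean of 0.712 TPM, did not pass the filter of a mean of 1 TPM that the other 8 passed.

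**Figure D1:**
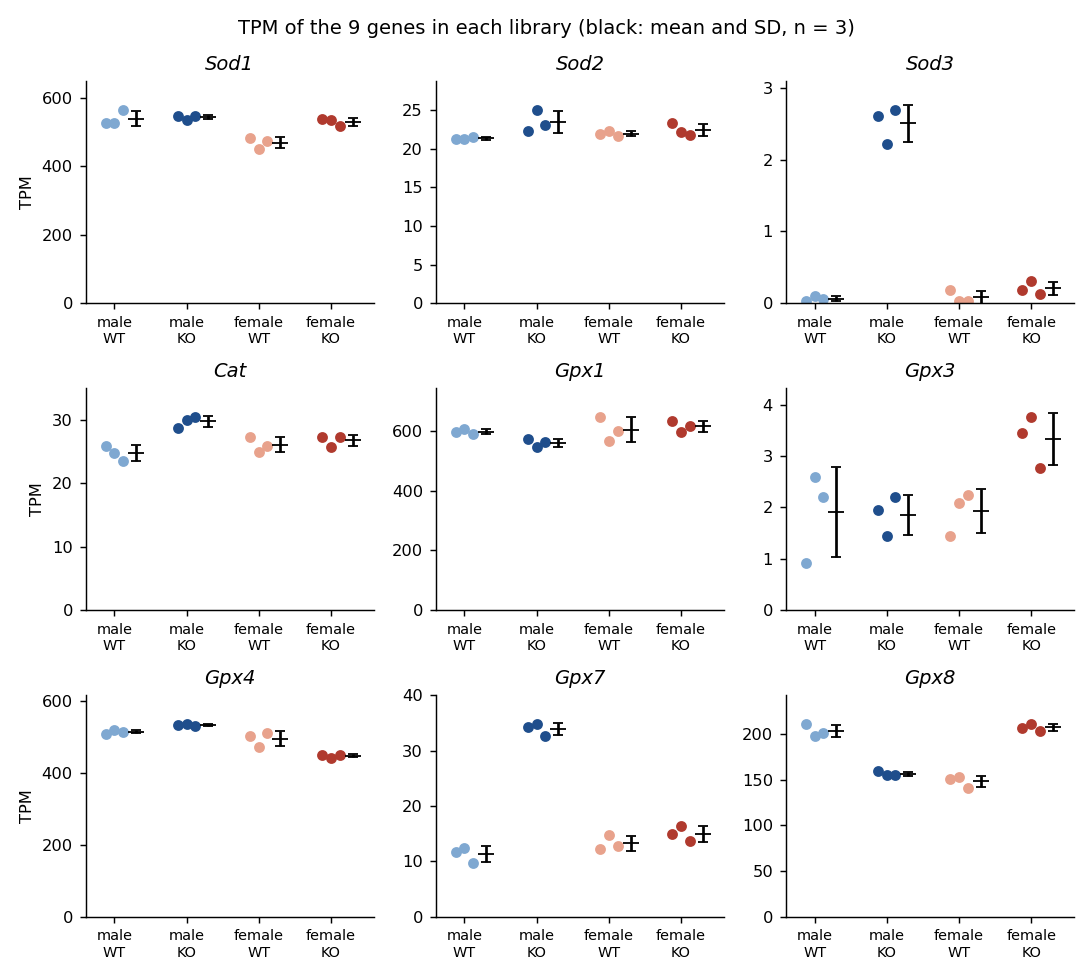
TPM of each of the 9 genes (vertical axes, each starting at 0) in the 3 libraries of each label, by sex and genotype; points are libraries and black marks the mean and SD. Sod3 and Gpx7 stood apart in the 3 male KO libraries, at 2.21 to 2.69 and 32.7 to 34.9 TPM, while Gpx8 was high in male WT and female KO libraries.

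Fold changes are differences of log2(TPM + 1), which understate the change of genes near 0, with the limma test over 12504 genes of mean 1 TPM or more and a gene called at a Benjamini-Hochberg adjusted p under 0.05. For Sod3 they come from the same fit without the filter, over 22401 genes. Whether groups of 3 libraries overlapped is given below as a description. The share of all genes whose groups did not overlap was not counted. In male KO against male WT MEFs, 3 of the 9 genes were higher (Sod3, Cat and Gpx7), 1 was lower (Gpx8) and 5 were not called, or 44.4% called. Over all genes 21.6% were called, 10.7% higher and 10.9% lower, and 10.4% without the filter. In female KO against female WT MEFs, 2 were higher (Sod1 and Gpx8), 1 was lower (Gpx4) and 6 were not called, or 33.3% called. Over all genes 11.5% were called, 5.63% higher and 5.84% lower, and 5.03% without the filter. The median log2 fold change of the 9 genes, with Sod3 from the fit without the filter, was 0.054 in male and 0.16 in female cells. Over all genes that passed the filter it was −0.015 and −0.023. The female median of the 9 is the value of Sod3 itself, which stayed under 1 TPM in female cells and was not called there. Scaling by the median of ratios moved the share of higher genes among all female calls from 49.1% to 59.3%.

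Sod3, the extracellular superoxide dismutase (ENSMUSG00000072941.5, chr5:52363791-52371418, plus strand), was detected above 1 TPM in male KO MEFs and in no other group. It was at 0.0298, 0.0949 and 0.0571 TPM in male WT and at 2.61, 2.21 and 2.69 TPM in male KO libraries. In female cells it was at 0.184, 0.0293 and 0.0300 TPM in WT and at 0.185, 0.304 and 0.125 TPM in KO libraries. The 3 male KO libraries lay above all others, and the female groups overlapped. Sod3 rose in male KO MEFs by 1.72 on the log2 scale (SE 0.072, limma adjusted p = 6.75e-04), the rank 150 change of 22401 genes, and by 4.03 where 0.1 in place of 1 was added to the TPM. The female difference was 0.16 (95% interval −0.063 to 0.38, limma adjusted p = 0.428), or 0.81 with 0.1 added. Even in male KO libraries Sod3 was at most 0.470% of the superoxide dismutase TPM. In these bulk cultures, a change in the share of cells that express a gene and in its mRNA per cell cannot be told apart.

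Sod1 (ENSMUSG00000022982.9, chr16:90220754-90226329, plus strand) was lowest in female WT MEFs. It was at 528, 527 and 565 TPM in male WT and at 549, 536 and 547 TPM in male KO libraries. Female WT libraries had 482, 452 and 474 TPM and female KO libraries 539, 535 and 518 TPM. Male WT and KO values overlapped, while all 3 female WT values lay below all others. Sod1 rose in female KO MEFs by 0.18 (SE 0.033, limma adjusted p = 0.0189), and the male difference was 0.012 (95% interval −0.075 to 0.099, limma adjusted p = 0.858). The female call was lost without female WT replicate 3 (adjusted p = 0.0573), female KO replicate 1 (0.0639) or female KO replicate 2 (0.0658), without the filter on low values (0.0518) and without the mean-variance trend (0.0861). Scaf4 overlaps Sod1 by 650 bp on the opposite strand, with no overlap of exons.

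Sod2 (ENSMUSG00000006818.4, chr17:13006846-13040063, plus strand), the mitochondrial enzyme, varied least of the 9 genes across the libraries. Male WT libraries had 21.2, 21.3 and 21.5 TPM and male KO libraries 22.3, 25.0 and 23.1 TPM. Female WT libraries had 21.9, 22.2 and 21.7 TPM and female KO libraries 23.3, 22.2 and 21.7 TPM. The male groups did not overlap, the KO values being higher, but the difference of 0.13 was not called (95% interval −0.031 to 0.29, limma adjusted p = 0.225). The female difference was 0.029 (95% interval −0.11 to 0.17, limma adjusted p = 0.793). Of the 31-base words in Sod2 transcripts, 26.6% occur in transcripts of other genes, so some reads may have been divided between them.

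Cat, which encodes catalase (ENSMUSG00000027187.10, chr2:103453849-103485160, minus strand), was highest in male KO MEFs. It was at 26.0, 24.8 and 23.5 TPM in male WT and at 28.8, 30.0 and 30.5 TPM in male KO libraries. In female cells it was at 27.4, 25.0 and 25.9 TPM in WT and at 27.3, 25.8 and 27.3 TPM in KO libraries. The male groups did not overlap and the female groups did. Cat rose in male KO MEFs by 0.26 (SE 0.064, limma adjusted p = 0.0303), or 1.19-fold, and the female difference was 0.039 (95% interval −0.10 to 0.18, limma adjusted p = 0.729). Without male WT replicate 1 the male call was kept (adjusted p = 0.0456). It was lost without male WT replicate 2 (0.0763) or 3 (0.102) and without male KO replicate 1 (0.0542), 2 (0.0694) or 3 (0.102).

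Among the selenocysteine peroxidases, Gpx1 and Gpx4 differed by no more than 0.15 on the log2 scale between KO and WT libraries of either sex, and Gpx3 was scarce. Gpx1 (ENSMUSG00000063856.7, chr9:108338903-108340343, plus strand), the general cytosolic and mitochondrial form, was at 598, 607 and 589 TPM in male WT and at 572, 545 and 562 TPM in male KO libraries. Female WT libraries had 648, 566 and 601 TPM and female KO libraries 634, 597 and 615 TPM. The male KO values lay below the male WT values, with a difference of −0.096 that was not called (95% interval −0.17 to −0.022, limma adjusted p = 0.0734). The female groups overlapped, with a difference of 0.027 (95% interval −0.096 to 0.15, limma adjusted p = 0.788).

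Gpx4 (ENSMUSG00000075706.10, chr10:80047166-80056439, plus strand) reduces lipid hydroperoxides within membranes and is known for its role in protecting cells from ferroptosis. It was at 509, 518 and 514 TPM in male WT and at 533, 536 and 529.8 TPM in male KO libraries. In female cells it was at 503, 469.8 and 510.3 TPM in WT and at 449, 441 and 449 TPM in KO libraries. In neither sex did the groups overlap, with KO values above WT in male and below WT in female cells. Gpx4 fell in female KO MEFs by 0.15 (SE 0.036, limma adjusted p = 0.0477), while the male difference of 0.054 was not called (95% interval −0.0097 to 0.12, limma adjusted p = 0.206). The female call was kept without female WT replicate 2 (adjusted p = 0.0171). It was lost without female WT replicate 1 (0.139) or 3 (0.135), without female KO replicate 1 (0.107), 2 (0.130) or 3 (0.111), without the filter (0.111), with median-of-ratios scaling (0.0954) and without the mean-variance trend (0.147). Of the 31-base words in Gpx4 transcripts, 38.9% occur in other genes, nearly all in the pseudogene Gpx4-ps2, which was listed at 0 to 1.69 TPM.

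Gpx3 (ENSMUSG00000018339.11, chr11:54902453-54910377, plus strand), the secreted form found in plasma, was highest in female KO MEFs. It was at 0.917, 2.60 and 2.21 TPM in male WT and at 1.94, 1.43 and 2.19 TPM in male KO libraries. Female WT libraries had 1.45, 2.08 and 2.25 TPM and female KO libraries 3.45, 3.76 and 2.77 TPM. The female KO values lay above all others, but the difference of 0.57 from female WT was not called (95% interval 0.16 to 0.98, limma adjusted p = 0.0847). The male groups overlapped, with a difference of 0.016 (95% interval −0.62 to 0.65, limma adjusted p = 0.976) that spans changes of either direction.

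The cysteine peroxidases of the ER varied most among the glutathione peroxidases above 5 TPM. Gpx7 (ENSMUSG00000028597.11, chr4:108400390-108406961, minus strand) was at 11.7, 12.5 and 9.75 TPM in male WT and at 34.2, 34.9 and 32.7 TPM in male KO libraries. In female cells it was at 12.3, 14.8 and 12.7 TPM in WT and at 15.0, 16.5 and 13.6 TPM in KO libraries. The male KO libraries lay far above all others, and the female groups overlapped. Gpx7 rose in male KO MEFs by 1.51 (SE 0.098, limma adjusted p = 9.12e-05), or 2.85-fold, the rank 227 change of 12504 genes. The female difference was 0.17 (95% interval −0.081 to 0.42, limma adjusted p = 0.356).

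Gpx8 (ENSMUSG00000021760.4, chr13:113042753-113046410, minus strand) changed in opposite directions in the sexes. It was at 211, 198 and 201 TPM in male WT and at 159, 156 and 155 TPM in male KO libraries. Female WT libraries had 151, 152 and 141 TPM and female KO libraries 206, 211 and 204 TPM. The groups of each sex did not overlap. Gpx8 fell in male KO MEFs by 0.37 (SE 0.038, limma adjusted p = 7.35e-04), or 0.771-fold, and rose in female KO MEFs by 0.48 (SE 0.039, limma adjusted p = 7.70e-04), or 1.40-fold. The calls of Gpx7 and Gpx8 were kept under every scaling, filter, pseudocount and left-out library tried. Gpx8 lies within Cdc20b on the opposite strand with no overlap of exons, and Cdc20b had a mean of 1.04 TPM.

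**Figure D2:**
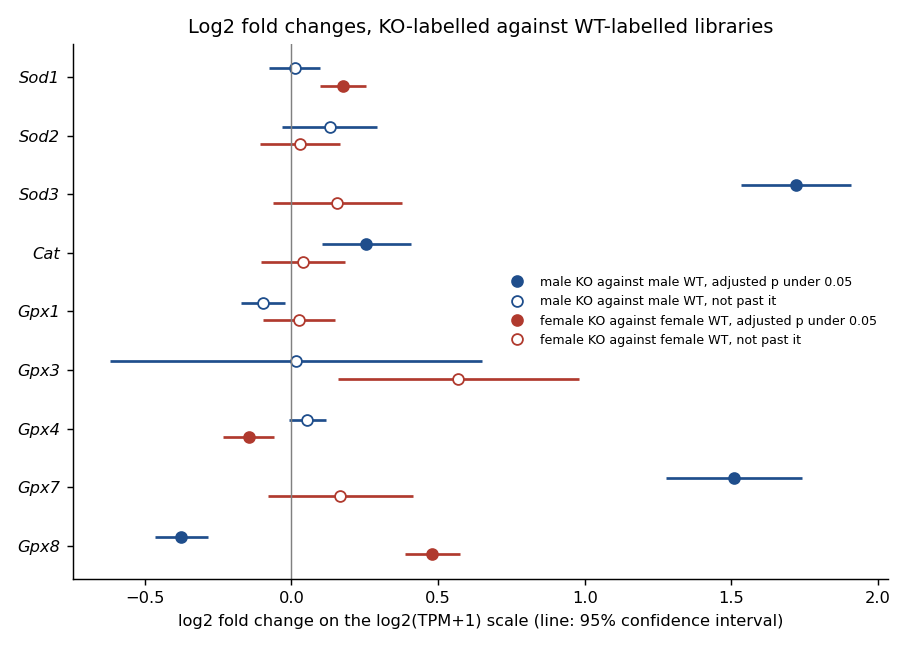
Log2 fold change, on the log2(TPM + 1) scale, of each gene in KO against WT libraries of the same sex (male blue, female red); lines are 95% confidence intervals and filled points passed an adjusted p of 0.05. Sod3 and Gpx7 lie at 1.72 and 1.51 in male cells, and Gpx8 lies on opposite sides of 0 in the sexes.

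Added over the class, the cysteine forms differed more between groups than the selenocysteine forms. Gpx7 and Gpx8 together summed to 215 ± 6.83 TPM in male WT, 190.4 ± 2.82 in male KO, 161 ± 6.89 in female WT and 222 ± 5.27 in female KO MEFs (mean ± SD, n = 3). Gpx1, Gpx3 and Gpx4 together summed to 1113 ± 12.7, 1094 ± 12.5, 1101 ± 58.1 and 1065 ± 22.7 TPM in the same order. Gpx7 was 5.27% of the Gpx7 and Gpx8 TPM in male WT but 17.8% in male KO MEFs, and 8.21% in female WT and 6.75% in female KO MEFs. Accordingly, the ratio of Gpx8 to Gpx7 was 18.2 ± 2.41 in male WT, 4.61 ± 0.140 in male KO, 11.2 ± 1.0 in female WT and 13.9 ± 1.08 in female KO MEFs. These sums and ratios are a description and were not tested.

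**Figure D3:**
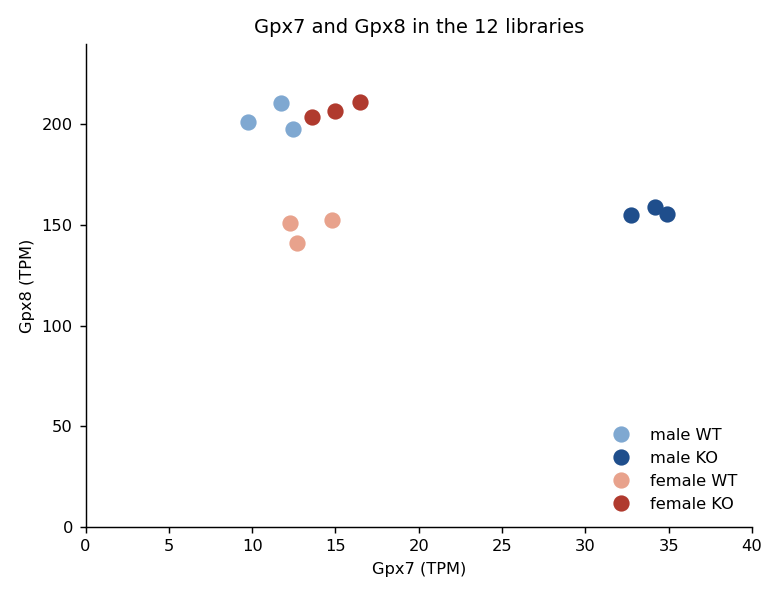
Gpx8 TPM (vertical axis) against Gpx7 TPM (horizontal axis) in each of the 12 libraries, coloured by group; both axes start at 0. Male KO libraries stand apart on the Gpx7 axis at 32.7 to 34.9 TPM, and female WT libraries have the lowest Gpx8, 141 to 152 TPM.

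Between the sexes, 2 of the 9 genes were higher in male than in female WT MEFs, Sod1 and Gpx8, and 7 were not called, or 22.2% called. Over all genes 12.8% were called, 6.26% higher and 6.56% lower, and 5.69% without the filter. Gpx8 was higher in male WT by 0.45 (SE 0.044, limma adjusted p = 0.00106). Sod1 was higher by 0.20 (SE 0.040, limma adjusted p = 0.0201), a call that was lost without male WT replicate 3 (adjusted p = 0.0566), female WT replicate 2 (0.0624) or 3 (0.0628), without the filter (0.0661) and without the mean-variance trend (0.0794). For Gpx7, which had no called difference between the WT groups, the difference was −0.21 (95% interval −0.49 to 0.064, limma adjusted p = 0.291).

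Male and female KO MEFs differed in 5 of the 9 genes, or 55.6%, with Sod3, Gpx4 and Gpx7 higher and Gpx1 and Gpx8 lower in male cells. Over all genes 16.6% were called, 8.17% higher and 8.39% lower, and 7.52% without the filter. Sod3 was higher in male KO by 1.54 (SE 0.089, limma adjusted p = 0.00194), or by 3.13 with 0.1 added to the TPM, and Gpx7 by 1.13 (SE 0.083, limma adjusted p = 1.74e-04). Gpx4 was higher by 0.25 (SE 0.025, limma adjusted p = 7.05e-04). Gpx8, reversing its order in the WT groups, was lower in male KO, with a difference of −0.40 (SE 0.033, limma adjusted p = 2.83e-04). Gpx1 was lower, with a difference of −0.14 (SE 0.034, limma adjusted p = 0.0370). The Gpx1 call was kept without female KO replicate 2 (adjusted p = 0.0455). It was lost without male KO replicate 1 (0.0569), 2 (0.0844) or 3 (0.0961), without female KO replicate 1 (0.111) or 3 (0.101), without the filter (0.0830), with median-of-ratios scaling (0.131) and without the trend (0.152). Gpx3 values of the KO groups did not overlap, but the difference of −0.60 was not called (95% interval −1.01 to −0.19, limma adjusted p = 0.0574).

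Whether the KO difference itself differed between the sexes was tested as the interaction of sex and genotype over the 12 libraries, with positive values where KO minus WT was larger in male cells. It was called for 5 of the 9 genes, or 55.6%, 3 positive (Sod3, Gpx4 and Gpx7) and 2 negative (Sod1 and Gpx8). Over all genes 13.0% were called, 6.70% positive and 6.33% negative, and 6.98% without the filter. The interaction was 1.56 for Sod3 (limma adjusted p = 4.25e-05), 3.22 with 0.1 added to the TPM, and 1.34 for Gpx7 (limma adjusted p = 7.95e-05). For Gpx8 it was −0.86 (95% interval −0.97 to −0.74, limma adjusted p = 1.37e-06), rank 937 by size of 12504 genes. The values for Gpx4 and Sod1 were smaller, 0.20 (limma adjusted p = 0.0102) and −0.17 (limma adjusted p = 0.0476). Without the mean-variance trend neither was called, at adjusted p = 0.0564 for Gpx4 and 0.140 for Sod1. Sod1 was called without male WT replicate 2 or female WT replicate 1 but not without any of the other 10 libraries (adjusted p = 0.0502 to 0.105), nor under median-of-ratios scaling (0.0939), quantile normalization (0.123) or no filter (0.0777). For Cat, which was called in male cells alone, the interaction of 0.22 was not called (95% interval 0.037 to 0.40, limma adjusted p = 0.117). For Cat a difference between the male and female cultures was thus not shown. Where the interaction was called, sex and cell line still cannot be told apart. The comparisons share groups of libraries and are not independent of each other.

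The genes whose log2(TPM + 1) followed each member most closely over the 12 libraries were found by the root mean square difference of deviations from the gene's own mean. For Gpx7 they were Plpp3 (difference 0.13, against 0.59 for the size of the Gpx7 deviations), Lgr4 (0.15) and Stard5 (0.16). Plpp3, a lipid phosphatase of the plasma membrane, averaged 20.3 TPM in male WT, 55.0 in male KO, 23.0 in female WT and 27.7 in female KO MEFs. Nearest to Gpx8 were Kremen1 (0.094, against 0.22), a Wnt pathway receptor at 21.6, 16.2, 15.8 and 20.2 TPM in the same order, Pgm2 (0.10) and Insyn1 (0.11). Among those closest to Sod3 were the basement membrane genes Col18a1 (0.16, against 0.72) and Lama4 (0.17). Nearest to Sod1 were Rpl21 (0.034, against 0.093), Laptm4a and Eef1b2, and nearest to Gpx4 were Sap18b (0.033, against 0.099), Aldoa and Ssr2.

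Genes that work beside these enzymes were counted in 7 lists. The ER oxidative folding list, whose disulfide isomerases are partners of Gpx7 and Gpx8, had 6 of 8 genes higher and none lower in male KO MEFs and 4 of 8 higher and none lower in female KO MEFs, with medians of 0.22 and 0.16. In male cells Vkorc1 (0.59, limma adjusted p = 2.3e-04), the peroxide-producing oxidase Ero1l (0.45, 0.044), P4hb (0.37, 1.5e-04) and Pdia4 (0.29, 0.0026) led the list. In female cells Pdia6 (0.46, limma adjusted p = 2.9e-04), Pdia4 (0.26, 0.0098), P4hb (0.18, 0.0072) and Pdia3 (0.14, 0.017) were higher.

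Among 12 peroxiredoxins, thioredoxins and their reductases, which remove peroxide by another route, 4 were higher and 1 lower in male and 2 were higher in female KO MEFs (medians 0.094 and 0.080). The peroxiredoxins Prdx4 and Prdx6 were higher in both sexes, by 0.27 and 0.22 in male (limma adjusted p = 0.011 and 0.012) and by 0.29 and 0.23 in female cells (0.0089 and 0.016). Prdx2 rose by 0.43 (limma adjusted p = 5.9e-04) and Txnrd3 fell by 0.41 (0.018) in male cells. Of 10 genes of glutathione supply and recycling tested, 3 were higher and 2 lower in male KO MEFs and none was called in female KO MEFs (medians 0.21 and −0.11). In male cells Chac1, which breaks glutathione down, rose by 1.02 (limma adjusted p = 4.4e-05) and the glutaredoxin Glrx by 0.49 (0.010). The amino acid transporter subunit Slc3a2 rose by 0.30 (0.0031), while glutathione reductase, Gsr, fell by 0.45 (0.0032).

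Of 13 genes linked to sources of superoxide or peroxide, 4 passed the filter. Maoa and Rac1 fell in male KO MEFs by 0.28 and 0.13 (limma adjusted p = 0.030 and 0.019). Maoa and Cyba rose in female KO MEFs by 0.29 and 0.22 (limma adjusted p = 0.030 and 0.026). Selenoprotein synthesis had 1 of 10 genes higher in male cells, Selenop, a selenium carrier (0.70, limma adjusted p = 0.012). In female cells 1 was higher, the Selenop receptor Lrp8 (0.30, limma adjusted p = 0.018). The interaction of sex and genotype was called for none of the 10. Copper and manganese supply had none of 6 called in either sex. Of 7 transcriptional regulators, Nfe2l2, which drives many antioxidant genes, was higher in male KO MEFs (0.17, limma adjusted p = 0.031). None of the 7 was called in female KO MEFs. The interaction of sex and genotype for Nfe2l2, 0.14, was not called (limma adjusted p = 0.237). For Nfe2l2 a difference between the male and female cultures was thus not shown. Of the 7 regulators the interaction was called for Rela alone (0.21, limma adjusted p = 0.031). The shares of all genes called in these comparisons are those given above.

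**Figure D4:**
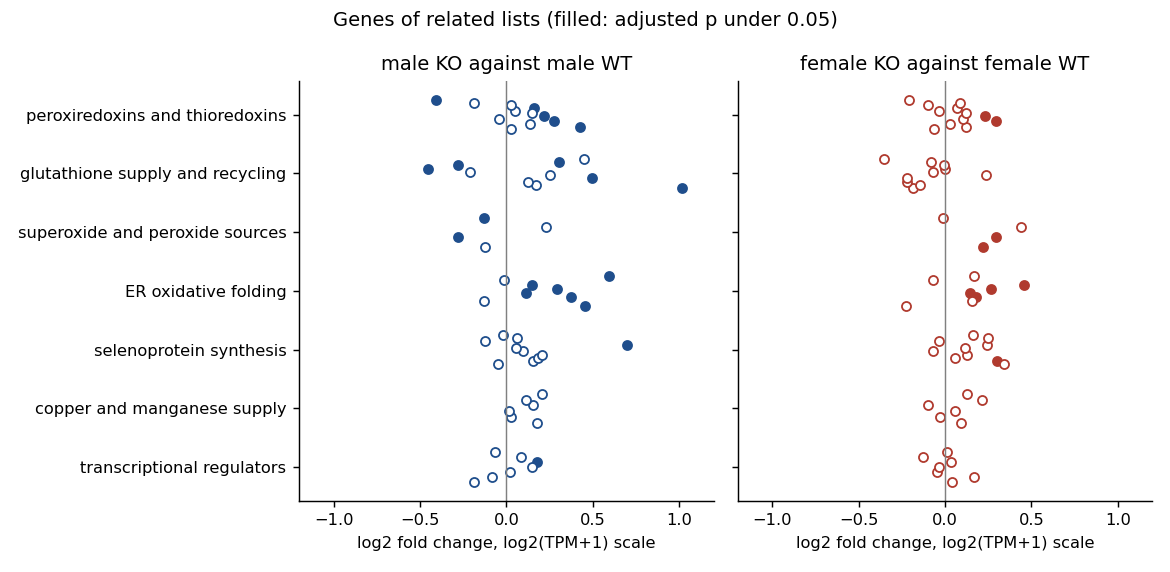
Log2 fold change, on the log2(TPM + 1) scale, of each tested gene of the 7 lists in male (left) and female (right) KO against WT libraries; filled points passed an adjusted p of 0.05. ER oxidative folding has 6 filled points right of 0 in male and 4 in female cells, and copper and manganese supply has none.

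Some markers of other cell types differed between the labels as well. The 6 epithelial markers summed to 76.1 to 77.8 TPM in male WT, 7.90 to 8.78 in male KO, 19.8 to 22.9 in female WT and 7.40 to 10.3 TPM in female KO libraries, mostly Krt19, with all 3 markers that passed the filter lower in KO libraries of each sex. Cdh1, Krt8 and Cldn4 did not exceed 0.395 TPM. The 4 mesothelial markers summed to 28.8 to 33.6, 4.86 to 7.57, 14.5 to 17.6 and 5.58 to 6.68 TPM in the same order, with 2 of 4 passing the filter: Msln was lower in KO libraries of both sexes and Wt1 was higher in KO libraries of male cells but lower in those of female cells. The 8 fibroblast markers had 4 genes higher in male and 7 higher in female KO libraries, and none lower. The 5 endothelial markers summed to 1.88 to 2.19 TPM in male WT, 1.42 to 1.63 in male KO, 4.76 to 5.76 in female WT and 1.98 to 2.37 TPM in female KO libraries. Kdr, the endothelial marker that passed the filter, fell in female KO libraries by 1.06 (limma adjusted p = 0.0037) and was not called in male ones. The 5 macrophage markers summed to 4.18 to 11.4 TPM, of which Cd68 was the most abundant and Adgre1 was listed at 0. Cd68, which alone passed the filter, was not called in KO against WT libraries of either sex. Csf1r averaged 1.41 TPM in male KO libraries and 0.208, 0.164 and 0.287 TPM in male WT, female WT and female KO libraries. Ptprc and Itgam did not exceed 0.116 and 0.0749 TPM. The 5 smooth muscle markers summed to 2997 to 3086 TPM in male WT, 2909 to 3012 in male KO, 3837 to 3916 in female WT and 4072 to 4185 TPM in female KO libraries. Of the 4 that passed the filter, Cnn1 was lower in male KO libraries (log2 fold change −0.43, limma adjusted p = 0.0070). In female KO libraries Des (−2.70, limma adjusted p = 2.9e-04) and Cnn1 (−0.72, 5.1e-04) were lower and Acta2 (0.24, 0.0019) was higher. Des averaged 6.26 TPM in female WT libraries but 0.175, 0.108 and 0.128 TPM in male WT, male KO and female KO libraries. The part of these markers in the differences of the 9 genes was not tested.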

How the data were processed

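Poly(A) RNA of 12 MEF cultures was sequenced by a commercial provider. The authors trimmed reads, quantified them with Salmon (1.10.1 per the labels) on GRCm38 and deposited TPM per gene; the annotation release is not given in the sources used here. TPM keeps no read depth, so the count model named in the study's methods was not used. Identifiers were matched to GENCODE M21 symbols (99.2%). Each comparison was fitted in limma 3.58.1 (R 4.3.3) on log2(TPM + 1) with empirical Bayes variances that follow expression level and Benjamini-Hochberg adjustment, over the 12504 genes whose mean reached 1 TPM. Same-numbered replicates were not paired. No libraries were identical, and 0 columns were left unused. The fit was tested on simulated data. Alternatives changed the pseudocount, filter, scaling, trend, samples fitted and replicate block, or left out each library. The 9 genes, the lists and the tests were chosen with earlier results of these data known. Named genes were the members, the other Gpx genes, up to 4 called genes per list by size of change, and the 3 closest patterns for each member with a called interaction, of which 1 is not reported here; cell type markers were named as lists. Intervals are 95% and cover the spread between libraries only.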

Additional observations from a re-analysis of the deposited data

Results flagged for a closer look

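The difference between male and female cultures in the KO response marked 5 genes for a closer look. It was tested over the 12 libraries in limma as the interaction on the log2(TPM + 1) scale. It was 1.56 for Sod3, 1.34 for Gpx7, 0.20 for Gpx4, −0.86 for Gpx8 and −0.17 for Sod1, with limma adjusted p = 4.25e-05, 7.95e-05, 0.0102, 1.37e-06 and 0.0476. Gpx8 was called in each sex with opposite signs, −0.37 in male and 0.48 in female cells. Single libraries that stand apart were not looked for within groups, which have 3 libraries each.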

How the results depend on the processing

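The 9 genes were followed through 5 comparisons. Of 324 values with a library left out, 283 kept their direction and call, 31 lost the call and 10 changed sign. Of 296 values under the other settings besides the block, 277 kept both, 15 lost the call, 1 gained it (Gpx3 between KO groups without the trend, adjusted p = 0.0400) and 3 changed sign. Counts of called members moved from 3 to 1 in female KO against WT and from 2 to 1 between WT groups, in each case both without the filter and without the trend, and from 5 to 3 for the interaction without the trend.

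Same-numbered libraries correlated at −0.057 to 0.078 in their deviations from group means, so the numbers do not pair them. With the replicate block, 39 of 45 values kept their direction and call and 6 lost the call: Cat in male KO against WT (adjusted p = 0.0722), Sod1 (0.0574) and Gpx4 (0.0739) in female KO against WT, Sod3 (0.0697) and Gpx1 (0.0519) between KO groups, and Sod1 in the interaction (0.0613). The count of called genes fell to 670 from 1434 in female cells, that of called members to 1 from 3 there, and to 3 from 5 between KO groups.

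With 1 library left out, called genes numbered 1813 to 2318 in male KO against WT (2707 with all libraries), 774 to 835 in female KO against WT, 1037 to 1243 between WT groups (1603), 1328 to 1824 between KO groups (2070) and 1353 to 1559 for the interaction (1629). Called members numbered 3 to 4, 1 to 3, 1 to 2, 4 to 5 and 4 to 5. The lower counts go with fewer samples in each fit.

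Signs changed only for uncalled values. In male KO against WT, with a library left out, Sod1 ranged from −0.0053 to 0.045 (below 0 without male WT replicate 1 or 2) and Gpx3 from −0.26 to 0.19 (below 0 without male WT replicate 1 or male KO replicate 1 or 3). In female KO against WT, Gpx1 was −0.0025 with quantile normalization and ranged from −0.020 (without female WT replicate 2) to 0.077 with a library left out. Between WT groups, Gpx1 was 0.0086 with median-of-ratios scaling and Gpx3 was 0.019 with quantile normalization. With a library left out there, Gpx1 ranged from −0.061 to 0.036 and Sod3 from −0.059 to 0.042, both above 0 without female WT replicate 1, and Gpx3 from −0.23 to 0.23, above 0 without male WT replicate 1 or female WT replicate 3. The causes were not tested. A filter of a mean of 5 TPM gave no value for Gpx3 or Sod3. TPM without read counts limits what can be said of Sod3 and Gpx3, whose values rest on few reads of unknown number.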

Other observations

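Promoter windows of the RefSeq table (250 bases before to 50 after each start) were searched on both strands for 5 short motifs, as a description. The 9 genes had 11 windows, 4 of them for Gpx4 and none for Sod3, of 32851 in all. TGACNNNGC, the core bound by Nfe2l2, was in 1 of the 11 windows, that of Sod1, and in 12.4% of all windows. ACGTG, the core of the hypoxia response element, was in 2 windows, those of Gpx1 and Gpx8, and in 19.6% of all. TGATGNAAN (3.95% of all windows), GTAAACA (3.65%) and the ER stress element (0.119%) were in none of the 11.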
